A study of Mus musculus with 2 samples.

Results

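Transcripts of 10 genes that carry fatty acids from the blood into the heart, or that build caveolae, were measured in the apex of mouse hearts at embryonic stage E12.5. The genes are Lpl, Gpihbp1, Cd36, Fabp3, Fabp4, Fabp5, Rbp7, Cav1, Cav2 and Cav3, found by symbol among 29383 genes, and each of the 10 had 1 row in the table. The set was chosen by measured values: it was put together with the difference between the genotypes in these same libraries known. Values that compare the genotypes therefore describe these genes and are no test of them. The control library came from Nkx2-5cre, Ezh2f/+ embryos and the mutant library from Nkx2-5cre, Ezh2f/f embryos, so both groups carry Cre recombinase under Nkx2-5, a gene of the heart lineage, and the control has a floxed Ezh2 copy too. Ezh2 encodes the histone methyltransferase of Polycomb repressive complex 2. Tissue of 8 hearts was pooled for each genotype and gave 1 library, without a Cre-free group, so no difference has a replicate check. The labels name the cells cardiomyocytes and name no sort, but endothelial markers summed to 1310 scaled reads per 1e6 (CPM) in the control, so the tissue held other cells too.

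Fatty acids reach heart muscle mainly from triglyceride in lipoproteins. Lipoprotein lipase, made by cardiomyocytes, is carried across the capillary wall by the endothelial protein GPIHBP1 and splits triglyceride at the luminal face. The scavenger receptor CD36 helps fatty acids into endothelium and muscle, and small cytosolic fatty acid binding proteins (FABPs) hold them in solution there. Caveolae are flask-shaped pits of the plasma membrane, abundant in capillary endothelium and muscle, that are built from caveolins and coated by cavins.

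The heterozygous library held 13944617 reads and the mutant library 14122579. Ezh2 itself had 493 reads in heterozygous tissue and 319 in the mutant, a mutant-to-heterozygote ratio of 0.601 (0.521 to 0.694). All ratios below are of counts scaled by the trimmed mean of M-values (TMM), with a 95% interval that covers counting error only, since the spread between embryos was not measured and reads carry no molecular identifiers that would tell molecules apart. In a piece of tissue, fewer cells of a type and less RNA per cell cannot be told apart.

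Every one of the 10 genes had a lower scaled level in the mutant library, where 51.2% of all tested genes had a log2 ratio below 0. A gene was tested for size if its higher library reached 1 CPM, which all 10 did. Size was taken on a log2 scale after adding a pseudocount of 1 CPM to each library, so that low levels give smaller values than their plain ratios. Fabp4, Rbp7 and Gpihbp1 were at least 2-fold lower on that scale and 0 of the 10 were at least 2-fold higher. Among the 16185 genes tested, 28 (0.173%) were at least 2-fold lower and 98 (0.605%) at least 2-fold higher. With a size of 1.5-fold, Cav1 and Cav2 joined the 3 lower genes, against 305 (1.88%) of all tested genes, and 0 of the 10 were higher, against 559 (3.45%). Cav2 was no longer 1.5-fold lower under total-count scaling or after removal of the GC trend, with log2 ratios of -0.56 and -0.38 instead of -0.64, nor with a pseudocount of 5 CPM (-0.49). The median log2 ratio of the 10 genes was -0.58, and that of all tested genes was -0.01. The choice of the genes fixes these counts, and nothing is read from them. With a pseudocount of 5 CPM only Fabp4 was 2-fold lower, with total-count scaling only Fabp4 and Rbp7, and after removal of a trend on GC content and length only Fabp4 and Gpihbp1.

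**Figure D1:**
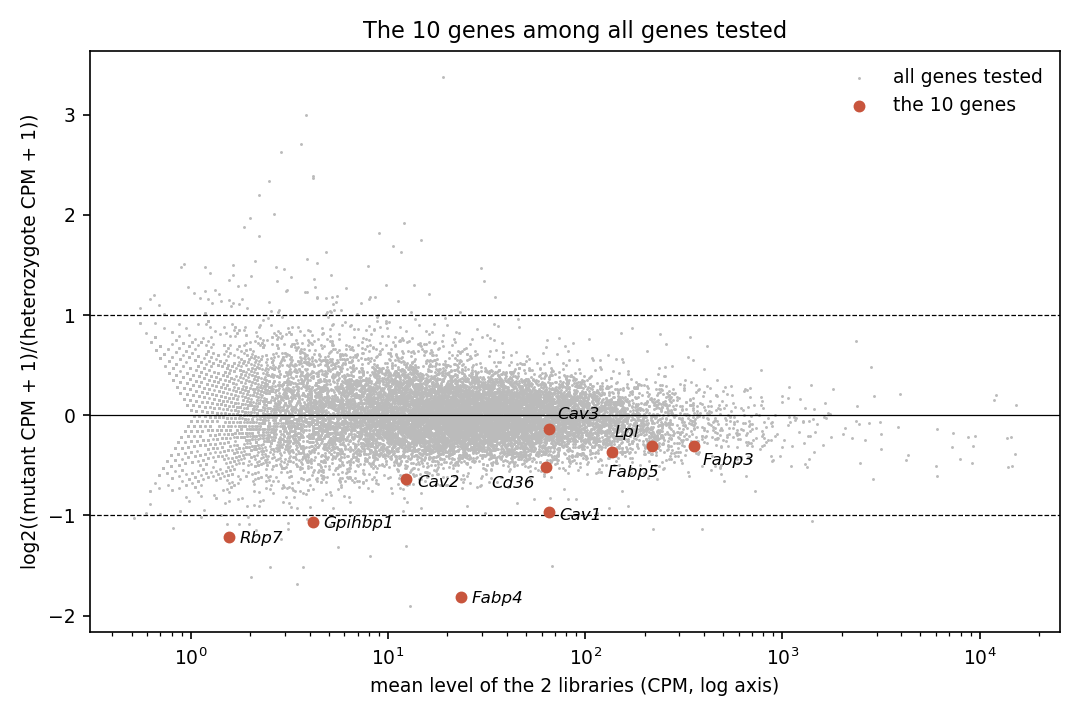
Each point is a gene; the horizontal axis is its mean TMM-scaled CPM over both libraries (log axis) and the vertical axis its log2 ratio of mutant to heterozygote with 1 CPM added to each. Red points are the 10 genes, grey points all 16185 genes tested, and dashed lines mark 2-fold; Fabp4 lies at -1.81, Rbp7 at -1.21, Gpihbp1 at -1.07 and Cav1 at -0.97, while Cav3 lies at -0.14 among most of the grey points.

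The lipase and its endothelial carrier differed in the size of their ratios. Lpl (chromosome 8, 71404454 to 71431347, plus strand), which encodes lipoprotein lipase, had 3276 reads (242 CPM) in the heterozygous library against 2855 reads (196 CPM) in the mutant. Its ratio was 0.81 (0.77 to 0.852), with a log2 ratio of -0.30. A second model named AK170106 lies inside Lpl, with 921 reads in heterozygous tissue and 840 in the mutant, and can count some of the same reads. Gpihbp1 (chromosome 15, 75427088 to 75428643, plus strand), the capillary anchor of the lipase, was read far less often, with 81 reads (5.99 CPM) in the heterozygous library against 34 (2.34 CPM) in the mutant. The mutant library was 2.56-fold lower (1.7 to 3.95), and the width of that interval reflects the small counts. Per 100 reads of Lpl there were 2.47 reads of Gpihbp1 in heterozygous tissue and 1.19 in the mutant. This within-library quotient, which does not depend on how the libraries are scaled, was 2.08-fold lower in the mutant (1.37 to 3.21). Carrier transcripts were thus lower in the mutant library also relative to the transcripts of the enzyme they carry.

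Cd36 (chromosome 5, 17287834 to 17355573, minus strand), the fatty acid translocase, had 1008 reads (74.5 CPM) in the heterozygous library against 754 (51.8 CPM) in the mutant. Its ratio was 0.695 (0.632 to 0.765). Only 2.82% of tested genes had a log2 ratio as low as the -0.52 of Cd36 or lower. Relative to Lpl the Cd36 reads were 0.858 times as many in the mutant (0.77 to 0.956), and relative to Cav1 they were 1.37 times as many (1.2 to 1.58). In these quotients, which were not corrected for the GC trend, Cd36 lay between the lipase and caveolin-1 in the size of its difference. Once that trend was removed, the log2 ratio of Cd36 was -0.30, close to the -0.20 of Lpl, and that of Cav1 was -0.80.

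Among the FABPs, Fabp4 stood apart from Fabp3 and Fabp5. Fabp4 (chromosome 3, 10204347 to 10208554, minus strand), known from adipocytes, capillary endothelium and macrophages, had 500 reads (37.0 CPM) in heterozygous tissue and 143 reads (9.82 CPM) in the mutant. Its ratio of 0.266 (0.219 to 0.321) is a level 3.76-fold lower in the mutant. Only 1 other tested gene had a lower log2 ratio, since Fabp4 ranked 2 from the lowest of 16185. Fabp3 (chromosome 4, 129986022 to 129992707, plus strand), the muscle and heart form, had 5361 reads (396 CPM) in the heterozygous library against 4654 (320 CPM) in the mutant, a ratio of 0.807 (0.775 to 0.839). Fabp5 (chromosome 3, 10012606 to 10016610, plus strand), named for epidermis and found in many cell types, had 2080 reads (154 CPM) in heterozygous tissue and 1737 (119 CPM) in the mutant, a ratio of 0.776 (0.728 to 0.827). The quotient of Fabp3 to Fabp5 reads differed between the libraries by a factor of 1.04 (0.964 to 1.12), an interval that includes 1. Against Fabp5 the Fabp4 reads were 2.92-fold fewer in the mutant (2.39 to 3.58), and against Fabp3 3.04-fold fewer (2.5 to 3.7). Pseudogenes of Fabp3 and Fabp5 exist in RefSeq under names that the deposited table does not list, so some reads of these genes are uncertain.

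Rbp7 (chromosome 4, 148823811 to 148829077, minus strand), a cellular retinol-binding protein of the same structural family as the FABPs, was the least read of the 10, with 35 reads (2.59 CPM) in the heterozygous library against 8 (0.55 CPM) in the mutant. The mutant level was 4.71-fold lower, but the counts allow anything from 2.15 to 11.7. Its log2 ratio of -1.21 depended on the pseudocount, at -2.05 with 0.1 CPM and -0.45 with 5 CPM. Rbp7 passed the floor of 1 CPM through the heterozygous library only. Per 100 reads of Fabp4 there were 7.0 reads of Rbp7 in heterozygous tissue and 5.59 in the mutant. That quotient differed by a factor of 0.799 (0.313 to 1.8), so the counts do not separate the sizes of the Rbp7 and Fabp4 differences.

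As shares of the reads of Fabp3, Fabp4, Fabp5 and Rbp7 together, Fabp4 took 6.27% in the heterozygote (Wilson 95% interval 5.76 to 6.82) and 2.19% in the mutant (1.86 to 2.57). Fabp3 took 67.2% (66.2 to 68.2) in the heterozygous library against 71.1% (70.0 to 72.2) in the mutant. Fabp5 held 26.1% (25.1 to 27.1) and 26.6% (25.5 to 27.6). The composition of the family thus differed by a smaller Fabp4 share and a larger Fabp3 share in the mutant library, with Fabp5 shares whose intervals overlap.

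The caveolins comprise a non-muscle pair, Cav1 and Cav2, and a muscle form, Cav3. Cav1 (chromosome 6, 17256370 to 17291324, plus strand), which encodes the main caveolin of endothelium and other non-muscle cells, had 1170 reads (86.5 CPM) in heterozygous tissue and 637 (43.8 CPM) in the mutant. Its ratio was 0.506 (0.459 to 0.558), just short of the 2-fold size, and its log2 ratio of -0.97 ranked 34 from the lowest. Cav2 (chromosome 6, 17231341 to 17239011, plus strand), the partner that joins caveolin-1 in mixed oligomers, had 207 reads (15.3 CPM) in the heterozygous library against 138 (9.48 CPM) in the mutant. The Cav2 ratio was 0.619 (0.496 to 0.772). The quotient of Cav1 to Cav2 reads differed by 0.817 (0.641 to 1.04), an interval that includes 1 without correction for the GC trend. Cav3 (chromosome 6, 112409499 to 112422866, plus strand), the caveolin of muscle cells, had 932 reads (68.9 CPM) in heterozygous tissue and 909 (62.4 CPM) in the mutant. The Cav3 ratio of 0.906 (0.826 to 0.994) was the closest to 1 of the 10, and its log2 ratio went from -0.14 to -0.05 under total-count scaling. Relative to Cav3, Cav1 reads were 0.558 times as many in the mutant (0.488 to 0.639) and Cav2 reads 0.684 times (0.537 to 0.869). Transcript GC content was 42.6% for Cav1, 37.5% for Cav2 and 56.6% for Cav3, and these quotients were not corrected for it. Once the GC trend was removed, the log2 ratios were -0.80 for Cav1, -0.38 for Cav2 and -0.14 for Cav3. Cav2 was then nearer to Cav3 than to Cav1, so its place beside Cav1 depends on that trend. Cav1 made up 50.7% of caveolin reads in the heterozygote (48.6 to 52.7) and 37.8% in the mutant (35.5 to 40.2), while Cav3 made up 40.4% (38.4 to 42.4) and 54.0% (51.6 to 56.3). These are shares of reads, of which the longer Cav1 transcript gives more per molecule; per kilobase Cav3 was above Cav1 in both libraries, at 59.5 and 31.5 CPM per kb in the heterozygote and 54.0 and 15.9 in the mutant.

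**Figure D2:**
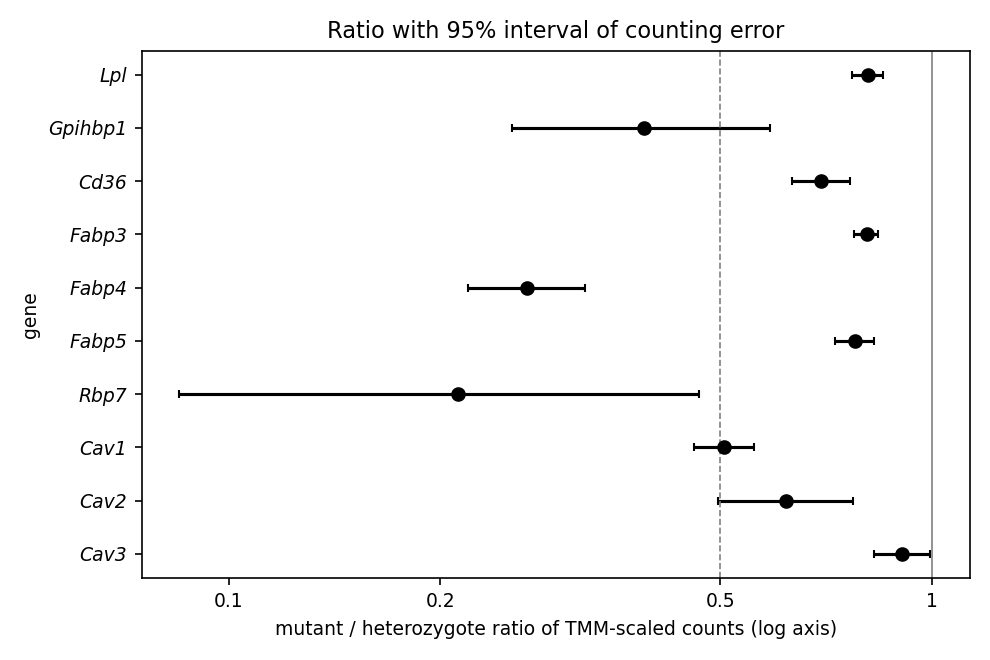
Points give the mutant-to-heterozygote ratio of TMM-scaled counts of each gene (log axis) and bars the 95% interval of counting error, with 1 library per genotype; the solid line marks 1 and the dashed line 0.5. Fabp4 and Rbp7 have intervals wholly below 0.5, those of Gpihbp1, Cav1 and Cav2 reach across 0.5, and the others lie between 0.5 and 1.

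**Figure D3:**
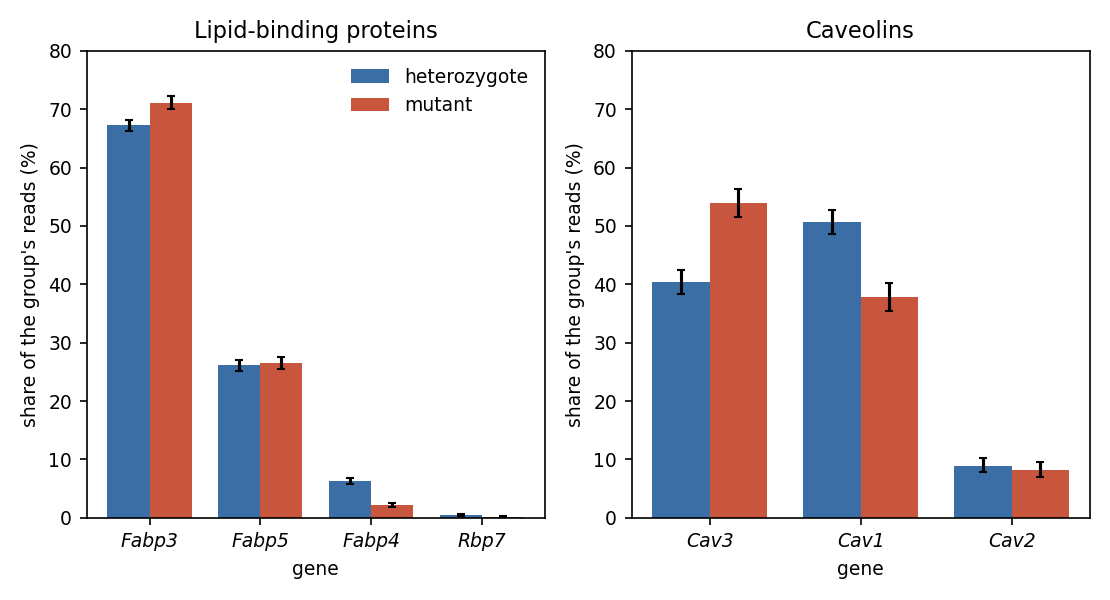
Bars give the share (%) of each gene in the reads of its group, for 4 lipid-binding proteins (left) and 3 caveolins (right), in the heterozygous (blue) and mutant (red) library, with Wilson 95% intervals of counting error. The Fabp4 share is 6.27% against 2.19%, and the Cav1 share of caveolin reads, not corrected for transcript length, is 50.7% against 37.8%.

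The sequence before the start site is shown with its CpG dinucleotides, the site of DNA methylation in mammals, for the neighbours Cav1 and Cav2, for Cav3 as the caveolin that differed least, and for Rbp7 as the gene with the lowest plain ratio. RefSeq promoters of build GRCm38.p6, which is another build than that of the deposited coordinates, matched 6 of the 10 genes: Fabp3, Rbp7, Cd36, Cav1, Cav2 and Cav3. The 150 bases before the start site are printed 5′ to 3′ on the gene's strand, with each CpG in capitals.
Cav1 (chr6:17306185-17306334, plus strand): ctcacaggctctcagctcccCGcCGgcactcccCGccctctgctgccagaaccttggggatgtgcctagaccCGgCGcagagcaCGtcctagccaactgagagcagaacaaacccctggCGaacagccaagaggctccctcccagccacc
Cav2 (chr6:17281035-17281184, plus strand): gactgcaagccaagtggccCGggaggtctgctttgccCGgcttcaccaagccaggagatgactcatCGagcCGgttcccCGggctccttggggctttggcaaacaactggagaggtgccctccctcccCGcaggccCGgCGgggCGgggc
Cav3 (chr6:112459355-112459504, plus strand): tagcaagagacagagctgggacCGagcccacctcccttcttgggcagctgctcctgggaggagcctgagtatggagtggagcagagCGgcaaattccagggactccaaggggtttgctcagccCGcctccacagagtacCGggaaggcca
Rbp7 (chr4:149454969-149455118, minus strand): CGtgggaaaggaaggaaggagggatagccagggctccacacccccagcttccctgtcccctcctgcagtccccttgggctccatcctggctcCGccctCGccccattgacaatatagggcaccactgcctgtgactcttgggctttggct
These stretches hold 7 CpGs for Cav1, 9 for Cav2, 4 for Cav3 and 3 for Rbp7. Over 250 bases before the start, the ratio of observed to expected CpGs was 0.471 for Cav1, 0.427 for Cav2, 0.206 for Cav3, 0.142 for Rbp7, 0.258 for Cd36 and 0.678 for Fabp3, while the median of 32851 promoters was 0.373. A second start site of Cav1 had a ratio of 0.588. The start sites used for Rbp7 and Cd36 were not the first RefSeq start of their gene. Rbp7, Cav3 and Cd36 thus lay below the median promoter and Fabp3, Cav1 and Cav2 above it. The motif AGGTCANAGGTCA, a direct repeat of the kind bound by PPAR and RXR receptors, was searched on both strands of the 250 bases and was in none of the 6 genes' promoters, and in 11 (0.0335%) of all promoters. Its half-site AGGTCA, which every full motif also contains, was found once each for Cd36 and Cav3, and in 14% of all promoters.

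Cav1 and Fabp4, each with another of the 10 genes close by, were set beside their neighbours within 200 kb. Cav2 ends 17.4 kb before Cav1 starts. Beyond this pair, the receptor tyrosine kinase gene Met, at 123 kb, had 107 reads in the heterozygous library against 86 in the mutant, a ratio of 0.747 whose interval reaches from 0.556 to 1.0, and the other models in the window had at most 3 reads in a library. Around Fabp4 lies a cluster of FABP genes. Fabp9, 7.12 kb away, and Pmp2, 20.5 kb away, had 0 reads in both libraries, which allows up to 3 counts in each, and the model 1700008G05Rik, listed as Fabp12, had 1 read in heterozygous tissue and 3 in the mutant. Further out, Impa1, which encodes an inositol monophosphatase, had 552 and 532 reads (ratio 0.896, 0.793 to 1.01), Zfand1 148 and 165 (1.04, 0.825 to 1.3) and Chmp4c, of the membrane-scission machinery, 68 and 42 (0.574, 0.381 to 0.855). Among the models of the window with reads in both libraries Fabp4 had the lowest ratio, and Fabp5, 188 kb away, had 0.776. Fabp4 was chosen with its ratio known, so this rank is no result about the region.

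Levels of different genes can be compared only per length, here as CPM per kilobase of a RefSeq-matched transcript in GENCODE M21. In the heterozygote Fabp3 was the most abundant at 482 CPM per kb, followed by Fabp5 at 156. Cav3 at 59.5 (55.8 to 63.5) and Lpl at 58.9 (56.9 to 60.9) followed and did not differ beyond counting error. Fabp4 at 41.3 (37.7 to 45), Cav1 at 31.5 (29.7 to 33.4) and Cd36 at 21.9 (20.6 to 23.3) came next, each apart from its neighbours. At the bottom were Gpihbp1 at 7.26 (5.76 to 9.02), Cav2 at 5.6 (4.86 to 6.42) and Rbp7 at 4.18 (2.91 to 5.81), where neighbouring intervals overlap. In the mutant, Fabp4 at 11 CPM per kb (9.24 to 12.9) stood below both Cav1 at 15.9 (14.7 to 17.2) and Cd36 at 15.2 (14.2 to 16.4), whose intervals overlap each other. The order of the 4 most abundant genes was the same, with Fabp3 at 388, Fabp5 at 121, Cav3 at 54.0 and Lpl at 47.7 CPM per kb, and Rbp7 was again the lowest at 0.888.

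**Figure D4:**
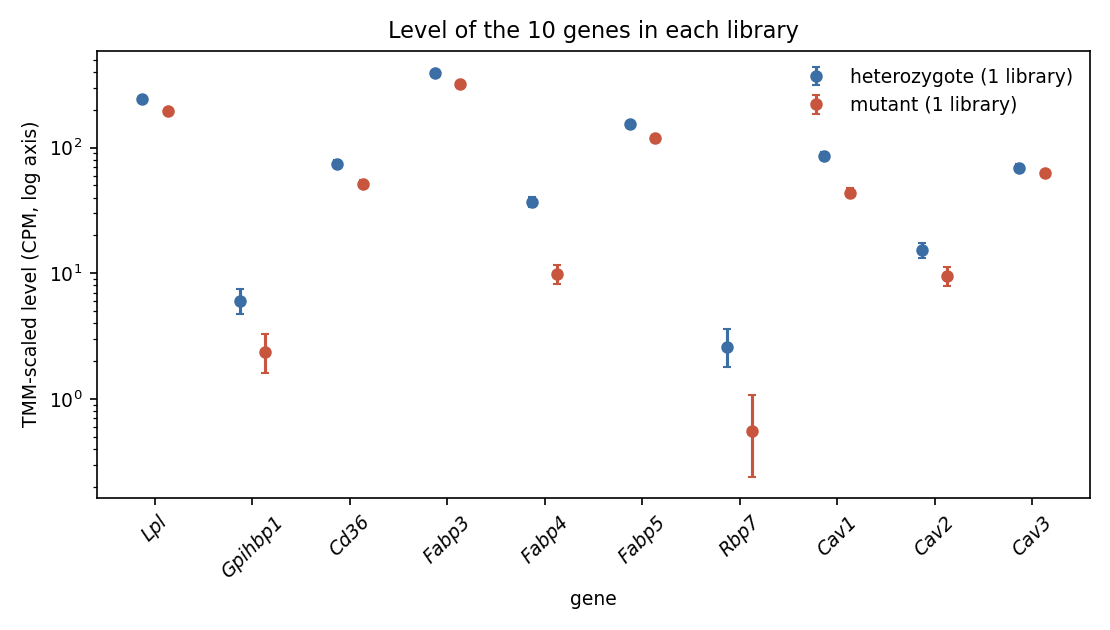
Points give the TMM-scaled level (CPM, log axis) of each gene in the heterozygous (blue) and mutant (red) library, with exact Poisson 95% intervals of the count, which are narrower than the point for the abundant genes. The mutant point is the lower one for all 10 genes. The gap is narrowest for Cav3 (68.9 and 62.4 CPM), wide for Fabp4 (37.0 and 9.82 CPM) and widest for Rbp7 (2.59 and 0.55 CPM).

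Other genes of the same steps were taken from lists of each step, with all list members in the count. Of 20 listed partners and regulators of the lipase, 15 were tested, 0 were 2-fold apart in either direction, 3 were at least 1.5-fold higher, and their median log2 ratio was 0.28 (0.13 after removal of the GC trend). Most abundant among them were Hspg2, the heparan sulfate proteoglycan perlecan, with 8919 reads in the heterozygous library against 13129 in the mutant (1.37, 1.33 to 1.41), the apolipoprotein gene Apoe with 1790 and 1957 (1.02, 0.952 to 1.08), and Furin, a convertase that can cleave the lipase, with 1393 and 2286 (1.52, 1.43 to 1.63). The log2 ratio of Hspg2 went from 0.45 to 0.08 once the GC trend was removed. Sorl1, a sorting receptor, and Sdc4, a heparan sulfate proteoglycan, named because the count is small, had ratios of 1.77 (1.54 to 2.04) and 1.54 (1.41 to 1.69). Angptl4, the secreted inhibitor of the lipase, singled out for that role after its value was seen, had 45 and 70 reads (1.45, 0.98 to 2.15). Furin was no longer 1.5-fold apart once the GC trend was removed, with a log2 ratio of 0.35 instead of 0.60.

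All 7 lipoprotein receptor genes were tested and 0 were 2-fold apart, with a median of 0.18 (0.04 after removal of the GC trend). Lrp1 had a ratio of 1.32 (1.23 to 1.42), the HDL receptor gene Scarb1, a relative of Cd36, 1.34 (1.21 to 1.48), and Vldlr, which is known to take up triglyceride-rich particles in heart, 0.857 (0.767 to 0.958). Olr1, a receptor for oxidized lipoproteins and the 1 member at least 1.5-fold higher, had 8 and 24 reads (2.79, 1.21 to 7.18). Of 14 genes of fatty acid transport and activation, 11 were tested, 0 were 1.5-fold apart in either direction and the median was 0.04. Among these, Got2 (also a membrane fatty acid binding protein) had a ratio of 1.02 (0.978 to 1.07), the acyl-CoA binding protein gene Dbi 0.778 (0.733 to 0.825) and the acyl-CoA synthetase gene Acsl3 0.927 (0.847 to 1.02). Lipid storage genes had 16 tested of 20 listed, 0 of them 2-fold apart. Plin2 (listed as Adfp) had a ratio of 0.953 (0.845 to 1.08), Plin3 (M6prbp1) 0.978 (0.887 to 1.08) and Fitm1 (1110028A07Rik), which encodes a protein of lipid droplet formation, 0.979 (0.901 to 1.06). The lipid droplet coat gene Plin4 (S3-12), the 1 member at least 1.5-fold higher, had 11 and 26 reads (2.2, 1.05 to 4.92), and its log2 ratio of 0.62 was 0.44 once the GC trend was removed. The lipolysis inhibitor gene G0s2, the 1 member at least 1.5-fold lower, had 337 reads in heterozygous tissue and 219 in the mutant (0.604, 0.507 to 0.718).

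Other intracellular lipid-binding proteins were mostly silent: 3 of 11 were tested, and 4 had no read in either library. The retinoic acid binding protein gene Crabp1 was 3.33-fold higher in the mutant (1.98 to 5.86), with 19 reads in the heterozygous library against 68 in the mutant. The brain form Fabp7 had 30 and 14 reads (0.434, 0.212 to 0.843). The family of Fabp4 and Rbp7 thus had members on both sides of 1.

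Cavins and other genes listed with caveolae did not share the Cav1 ratio. The list is wider than the cavin coat. All 20 genes of cavins and other caveola proteins were tested, 0 were 1.5-fold apart in either direction, and the median log2 ratio was 0.06 (-0.05 after removal of the GC trend). Cavin-1, listed as Ptrf and needed for caveola formation, had 5675 reads in heterozygous tissue and 6171 in the mutant, a ratio of 1.01 (0.974 to 1.05). Per 100 reads of Ptrf there were 20.6 reads of Cav1 in the heterozygous library against 10.3 in the mutant, which is 2.0-fold fewer (1.8 to 2.22). Cavin-2, listed as Sdpr and singled out for its role, had a ratio of 0.859 (0.808 to 0.913). The endocytic ATPase gene Ehd4 had 0.925 (0.871 to 0.982), and Popdc2, of a caveolin-3 binding family in heart muscle, 0.944 (0.903 to 0.987).

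Of 22 listed regulators of endothelial fatty acid uptake, 20 were tested, 0 were 2-fold apart and 2 were at least 1.5-fold higher, with a median of 0.16 (0.06 after removal of the GC trend). The corepressor gene Ncor1 had a ratio of 0.996 (0.948 to 1.05), Nrp1, a coreceptor for VEGF, 1.1 (1.05 to 1.15) and Vegfa 1.16 (1.08 to 1.25). The pair at least 1.5-fold higher were Tcf15, with 38 and 70 reads (1.71, 1.14 to 2.61), and Foxo3, listed as Fkhr2, with 61 and 107 (1.63, 1.18 to 2.27). Neither was 1.5-fold higher once the GC trend was removed, with log2 ratios of 0.41 and 0.38. Tcf15 and Meox2 encode partners in a known heterodimer that drives fatty acid uptake genes in heart endothelium, and Meox2, singled out for that role, had 19 and 9 reads (0.44, 0.175 to 1.02). Pparg, the nuclear receptor for which Fabp4 is a classical target, had 6 reads in heterozygous tissue and 10 in the mutant, below the floor in both. At these counts no difference of Pparg or Meox2 was detectable.

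**Figure D5:**
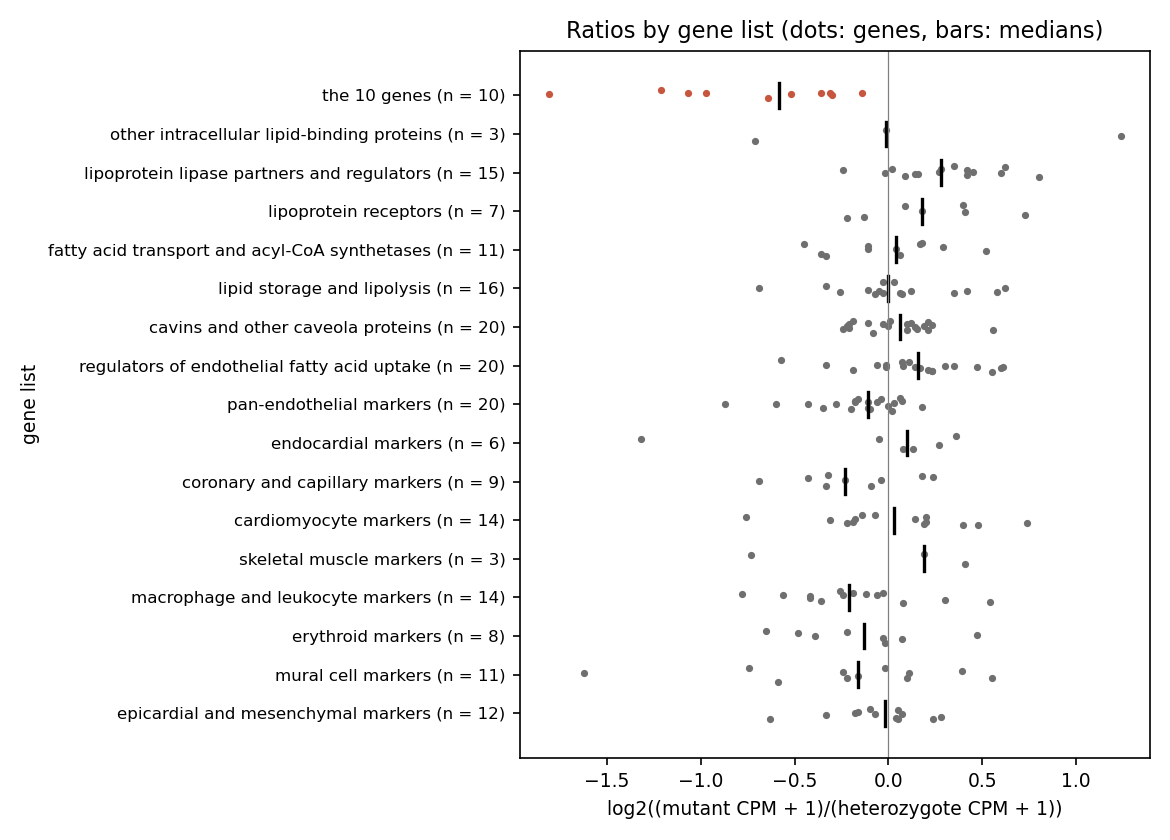
Each dot is a tested gene and each black bar the median of its list; the horizontal axis is the log2 ratio of mutant to heterozygote with 1 CPM added, and the vertical axis the lists with at least 3 tested genes (n in brackets). Dots of the 10 genes (red) lie from -1.81 to -0.14, while the medians of the other lists lie between -0.23 and 0.28.

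Markers of the cells that could hold these transcripts were compared in the same way. Of 20 pan-endothelial markers all were tested, 0 were 2-fold apart, and their summed level was 1310 CPM in the heterozygous library against 1250 CPM in the mutant, with a median log2 ratio of -0.11. Cdh5, the endothelial cadherin, had 3277 and 3278 reads (0.929, 0.885 to 0.976), Eng 1.05 (0.991 to 1.12) and Tie1 1.13 (1.07 to 1.21), and the log2 ratios of Eng and Tie1 were below 0 (-0.09 and -0.02) once the GC trend was removed. Named because they were the 2 at least 1.5-fold lower, Eltd1 had 0.521 (0.415 to 0.651) and Robo4 0.636 (0.505 to 0.799). Per 100 reads of the summed endothelial markers there were 2.81 reads of Fabp4 in heterozygous tissue and 0.787 in the mutant, 3.57-fold fewer (2.96 to 4.34). On the same basis Gpihbp1 was 2.43-fold lower (1.61 to 3.75), Cav1 1.88-fold (1.7 to 2.07) and Rbp7 4.47-fold (2.04 to 11.2). Cav2 was 1.53-fold lower (1.23 to 1.92), Cd36 1.37-fold (1.24 to 1.51), Fabp5 1.22-fold (1.14 to 1.31), Fabp3 1.18-fold (1.13 to 1.23), Lpl 1.17-fold (1.11 to 1.24) and Cav3 1.05-fold (0.953 to 1.15). These quotients describe genes chosen for their difference, and the part of endothelial cell number in them was not tested. No quotient of reads was corrected for the GC trend. Once that trend was removed, the log2 ratio of Fabp5 was -0.11, the same as the median of the endothelial markers. Cav3 was then at -0.14, Fabp3 and Lpl at -0.20, Cd36 at -0.30 and Cav2 at -0.38. Further below the median were Cav1 at -0.80, Rbp7 at -0.96 and Fabp4 at -1.45. The small Fabp5 quotient is therefore not read as a difference from the endothelial markers.

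Coronary and capillary markers, of which 9 of 10 were tested, had a median log2 ratio of -0.23 and a summed level of 119 CPM in the heterozygous library against 111 CPM in the mutant, with 0 genes 2-fold apart. The arterial connexin gene Gja4 had a ratio of 1.19 (1.01 to 1.4), Sox7 0.935 (0.804 to 1.09) and the Notch ligand gene Dll4 0.97 (0.819 to 1.15), while the apelin receptor gene (listed as Agtrl1), the 1 member at least 1.5-fold lower, had 0.595 (0.475 to 0.741). Endocardial markers had a median of 0.10, with Plxnd1 at 1.09 (1.04 to 1.15; its log2 ratio was -0.19 once the GC trend was removed), Npr3 at 0.966 (0.91 to 1.03) and Nfatc1 at 1.29 (1.14 to 1.46), and with Cytl1 as the 1 of 6 that was 2-fold lower (113 and 40 reads, 0.329, 0.223 to 0.476). A model named Cyt1 inside Cytl1 shares its reads. Mural cell markers summed to 2260 and 2160 CPM, with a median of -0.16, and Rgs5 was the 1 of 11 that was 2-fold lower (48 and 7 reads, 0.136, 0.0517 to 0.301). At least 1.5-fold lower besides were the pericyte channel gene Kcnj8 (74 and 42 reads, 0.527, 0.352 to 0.78) and the smooth muscle myosin gene Myh11 (25 and 13 reads, 0.483, 0.227 to 0.981). Among the most read of the list, which embryonic cardiomyocytes also express in part, Acta2 had a ratio of 0.845 (0.826 to 0.865), Des 1.07 (1.04 to 1.11) and Cnn1 0.983 (0.942 to 1.03). Whether the makeup of the vessels has a part in the Fabp4, Gpihbp1, Rbp7 and Cav1 differences was not tested.

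Macrophages and adipocytes also express Fabp4. Macrophage and leukocyte markers summed to 118 CPM in heterozygous tissue and 95.7 CPM in the mutant, a ratio of 0.814 (0.757 to 0.875), with 14 of 14 tested, 0 of them 2-fold apart and a median of -0.21. The receptor gene Csf1r had 218 and 196 reads, Itgam 251 and 178, and C1qc 207 and 194. Lyz2 (listed as Lyzs), which encodes a lysozyme of myeloid cells and was the 1 member at least 1.5-fold lower, had 183 and 109 reads (0.553, 0.433 to 0.705). The part of these cells in the Fabp4 difference was not tested. Adipocyte markers were near 0, with 0 of 10 tested and a sum of 15 reads in the heterozygous library against 14 in the mutant. Adipoq and Lep had 0 reads in the control library and 1 each in the mutant. The most read of the list were Acvr1c with 7 and 5 reads, Aqp7 with 6 and 1, and Pck1 with 0 and 3.

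Fabp3 and Cav3 are known from cardiomyocytes. The 14 cardiomyocyte markers had a median log2 ratio of 0.03 (-0.03 after removal of the GC trend), 0 were 2-fold apart, and their summed ratio was 0.989 (0.985 to 0.992). The ventricular light chain gene Myl2, Myh7 and Actc1 had ratios of 0.858 (0.852 to 0.863), 1.15 (1.14 to 1.16) and 0.886 (0.878 to 0.893). At least 1.5-fold apart were the atrial light chain gene Myl7, at 1.67 (1.64 to 1.7), and Pln, which encodes phospholamban, at 0.591 (0.574 to 0.608), of which Pln was not once the GC trend was removed (log2 ratio -0.50). Relative to these markers as a sum, Fabp3 reads were 0.816 times as many in the mutant (0.784 to 0.849), Lpl reads 0.819 times (0.779 to 0.862), Cd36 reads 0.703 times (0.639 to 0.773) and Cav3 reads 0.917 times (0.836 to 1.01). The skeletal muscle regulators Myf5, Myf6, Pax7 and Pax3 had 0 reads in both libraries, and 3 of 12 skeletal muscle markers were tested, with Tnni2 at 0.598 (0.548 to 0.652), Myh8 at 1.18 (0.768 to 1.84) and Actn3 at 1.46 (0.939 to 2.3). Erythroid markers had a summed ratio of 0.946 (0.928 to 0.964), with Hba-x at 0.983 (0.962 to 1.0), Hbb-bh1 at 0.856 (0.805 to 0.911) and Tfrc at 0.979 (0.917 to 1.05). Hba-x alone gave 15893 of the 21777 reads of that list in the heterozygote, so the sum mostly follows this gene. Alas2, the 1 of 8 tested that was at least 1.5-fold lower, had 854 and 579 reads (0.63, 0.566 to 0.701), and 0 were 1.5-fold higher. Epicardial and mesenchymal markers had a summed ratio of 0.993 (0.972 to 1.02), with Col1a1 at 1.03 (0.991 to 1.07), Col3a1 at 1.03 (0.992 to 1.08) and Postn at 0.883 (0.823 to 0.947). Dcn, the 1 of 12 at least 1.5-fold lower, had 862 and 593 reads (0.639, 0.575 to 0.711), and 0 were 1.5-fold higher. The log2 ratio of Dcn went from -0.63 to -0.41 once the GC trend was removed. Hepatocyte and keratinocyte markers, which are foreign to the tissue, summed to 52 and 45 reads. Highest by mean CPM over both libraries were Ttr, Krt5 and Krt14, with 15, 7 and 6 reads in the heterozygote and 10, 12 and 9 in the mutant.

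For the 3 genes that were 2-fold lower, the tested genes nearest in log2 ratio and log2 mean CPM over the 2 libraries were listed. Nearest to Fabp4 were Myom2 (284 and 71 reads, distance 0.86), Snapc5 (449 and 251, distance 0.911) and Ptgds (242 and 97, distance 1.06). Insc, 1110020C03Rik and St8sia4 were nearest to Rbp7, at distances from 0.129 to 0.399. The models 8430408G22Rik, Ctla2b and 9430076C15Rik lay nearest to Gpihbp1, at 0.11 to 0.308. With 2 libraries such nearness says only that read numbers were alike.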

How the data were processed

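RNA sequencing of 1 library per genotype was analysed, each from pooled apex tissue of 8 hearts and prepared by a full-length transcript protocol, as the labels record. The deposited table gives whole-number read counts for 29595 gene models, CPM per 1e6 reads of the library total, a heterozygote-over-mutant fold ratio and a p-value of no named test, per the file headers; the authors' fold and p-value were not used. The aligner, the counter, use of strand and the build: not given in the sources used here. Starts had 1 added. Models of Lpl, Cytl1, Hspg2 (2 rows), Got2, Acsl3, G0s2, Nrp1, Vegfa, Foxo3, Npr3, Dll4, Aplnr, Chmp4c, Impa1, St8sia4, 8430408G22Rik, 9430076C15Rik, Col3a1, Myh7, Myh8, Actc1 and Acta2 overlap others, whose reads cannot be told apart.

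Rows of 1 symbol were summed to 29383 genes. Counts were scaled by TMM in edgeR 4.0.16 under R 4.3.3, with factors of 0.97 and 1.03, which shifted the median log2 ratio by -0.08 against library totals. Ratios have exact conditional Poisson intervals, quotients within a library exact conditional intervals of the odds ratio (scipy 1.17.1), and shares Wilson intervals. Only the intervals of the ratios were tested on simulated counts. Those counts were drawn from the Poisson model that the intervals assume, so spread between embryos had no part in that check. No test of genotype was possible. Alternatives were library totals, DESeq2 1.42.0 size factors, upper quartiles, pseudocounts of 0.1 and 5 CPM, no floor and a floor of 5 CPM, and removal of a trend (quadratic in GC percent and in log transcript length), available for 95.0% of tested symbols and fitted to 10902 genes. The members and lists were chosen with earlier results of these data known. All 10 genes are named, and from each list those 2-fold apart and the 3 with the highest mean CPM; for Fabp4, Rbp7 and Gpihbp1 also the 3 nearest genes. A further result under this rule is left out of the text. Sorl1, Sdc4, Angptl4, G0s2, Sdpr, Tcf15, Foxo3, Meox2, Pparg, Eltd1, Robo4, Aplnr, Plin4, Kcnj8, Myh11, Lyz2, Olr1, Myl7, Pln, Alas2, Dcn, Adipoq, Lep and the skeletal muscle regulators fall outside that rule and were named after their values were seen.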

Additional observations from a re-analysis of the deposited data

How the results depend on the processing

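All 10 log2 ratios were below 0 under each of the 6 alternatives of scaling, pseudocount and GC trend. Ranges were -1.90 to -1.45 for Fabp4, -2.05 to -0.45 for Rbp7, -1.32 to -0.58 for Gpihbp1, -0.98 to -0.80 for Cav1, -0.37 to -0.11 for Fabp5 and -0.14 to -0.05 for Cav3. With a pseudocount of 5 CPM the number of genes at least 2-fold lower was 1 instead of 3 and the number at least 1.5-fold lower 2 instead of 5; the added value is above the mutant levels of Rbp7 and Gpihbp1. Over all tested genes, 6 were then 2-fold lower and 50 were 1.5-fold lower, against 143 and 573 with 0.1 CPM, so these counts depend on the pseudocount. After removal of the GC and length trend the median of the 10 genes was -0.34 instead of -0.58, and Fabp4, Fabp5, Lpl, Fabp3, Cd36 and Cav1 moved toward 0 by more than their counting error. With a floor of 5 CPM Rbp7 was no longer tested. No paired analysis was possible because each genotype has 1 library and the labels give no replicate numbers, and for the same reason no library could be left out. The 8 reads of Rbp7 in the mutant limit its precision most.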
